A study of Mus musculus with 12 samples.

Results

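The question was what lipopolysaccharide (LPS) did to the mRNA of mouse macrophages that had received only a control siRNA. RAW264.7 is an established mouse macrophage line, and both groups compared had received control siRNA, a non-targeting RNA, 24 hours before the LPS exposure. The comparison held 6 of the 12 RNAseq libraries of the series, chosen by their labels: 3 with control siRNA and 20 ng/ml LPS for 4 hours, and 3 with control siRNA and no LPS. The other 6 libraries, 3 with SF3a1 siRNA and LPS and 3 with SF3a1 siRNA and no LPS, helped to estimate the spread between replicates and are set beside the main comparison at the end. Both groups carried the transfection, so its own effect cannot be told apart from the resting state of the line. A single cell line was used with treatments in triplicate, so the p-values measure the spread between replicate treatments of 1 line. The libraries without LPS are called resting replicates below and those with LPS are called LPS replicates. Without LPS, 40840082, 20659511 and 21313015 reads were counted on genes in replicates 1, 2 and 3, and with LPS 41091887, 13021502 and 18437310. Replicate 1 of each group was sequenced in 2 runs and stood somewhat apart: across genes, the SD of its log2 difference from the other replicates of its group was 0.618 to 0.777, against 0.395 between replicates 2 and 3 without LPS and 0.493 with LPS. The same SD between a library with and a library without LPS was 1.15 to 1.35.

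LPS is the glycolipid of the outer membrane of Gram-negative bacteria. TLR4, with MD-2 and CD14, binds it at the macrophage surface and signals through 2 adaptor routes: MyD88, which leads to NF-κB and the MAP kinases, and TRIF, which leads to IRF3 and to interferon β. The secreted interferon then acts back on the cells through STAT factors, so that a response of a few hours holds both direct target genes and a later wave of interferon-stimulated genes. Macrophages exposed to LPS are also known to slow their proliferation and to rewire their metabolism.

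The labelled cell type fitted its markers. All 12 macrophage markers examined were read in every library, among them the lysozyme gene Lyz2 at 5426 ± 610.3 CPM without LPS and 6307 ± 299 CPM with LPS and Cd68 at 739 ± 4.00 CPM without LPS and 694 ± 1.71 CPM with LPS, neither of which was called. Of the 12, 7 were called higher with LPS (Cd14, Fcgr1, Itgam, Mpeg1, Adgre1, Spi1 and Fcer1g) and 1 lower (Csf1r), with a median log2 fold change of 0.83. Adgre1 (log2 fold change 0.89) was not called without LPS replicate 1 (0.47) or resting replicate 2 or 3 (0.76 and 0.84). CPM is the count of a gene per 1000000 reads of its library, with library sizes scaled by edgeR (TMM), and values with ± are the mean and SD of 3 libraries. Of markers of T, B, NK, mast and epithelial cells, neutrophils, fibroblasts and endothelium, only Lck was above the filter on low counts and called (2.26 ± 0.436 to 12.1 ± 1.90 CPM). Cd3d, Cd3e, Cd3g, Cd4 and Cd8a had 3 counts or fewer in all 6 libraries together. Of 7 osteoclast markers, 5 were tested, and Mmp9 alone was called (0.280 ± 0.0445 to 66.1 ± 44.9 CPM). Of 6 dendritic cell markers 3 were tested, all at levels under 2 CPM. Xcr1 was called higher (0.0371 ± 0.0347 to 1.13 ± 0.265 CPM) and Siglech lower (0.845 ± 0.263 to 0.0989 ± 0.0172 CPM). Zbtb46 was called lower (1.76 ± 0.404 to 0.771 ± 0.288 CPM, log2 fold change -1.13), but not without LPS replicate 2 or 3 (-0.92 and -1.11) or resting replicate 1 or 3 (-1.15 and -0.93). Where 1 library moved a fold change printed here by over 1.5 times, the log2 fold change without it is given too, and it was 7.19 for Mmp9 without LPS replicate 1 and 5.39 for Xcr1 without resting replicate 1.

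Of 38215 annotated genes, 14983 had enough reads to be tested. LPS changed the mRNA of 32.1% of these at a false discovery rate of 0.1 (edgeR quasi-likelihood test with Benjamini-Hochberg adjustment). Of the tested genes 13.8% (2061) were higher with LPS and 18.3% (2748) were lower, and the median log2 fold change of all tested genes was -0.02. Falls were more numerous but smaller. The median called rise was 2.49-fold and the median called fall 1.90-fold. Changes of at least 2-fold were as common upward (1274 genes, 8.5% of those tested) as downward (1228, 8.2%), whereas 691 genes rose and 266 fell at least 4-fold. By the fitted values 296 genes rose and 17 fell at least 16-fold. With genes of 0 counts in a group held at their bound, set by 3 counts over that group, 295 rose and 14 fell at least 16-fold, 49 rose at least 256-fold and 11 at least 1024-fold, and no gene fell by so much. Of the genes called higher, 2040 moved the same way in each of the 3 same-numbered pairs of libraries, and of those called lower 2745 did. In 1942 genes called higher and 2637 called lower the groups did not overlap, and over all tested genes every LPS library was above every resting library in 2575 (17.2%) and below in 3441 (22.97%). With the replicate number added to the model as a block, 2819 genes were called higher and 3752 lower (18.8% and 25.04% of those tested). For the gene lists below, counts are over tested members. A count from the blocked model, or without 1 library, is given for most lists where it differed by more than 1.5 times. Fewer cells expressing a gene and less RNA of it per cell cannot be told apart in such bulk samples.

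**Figure D1:**
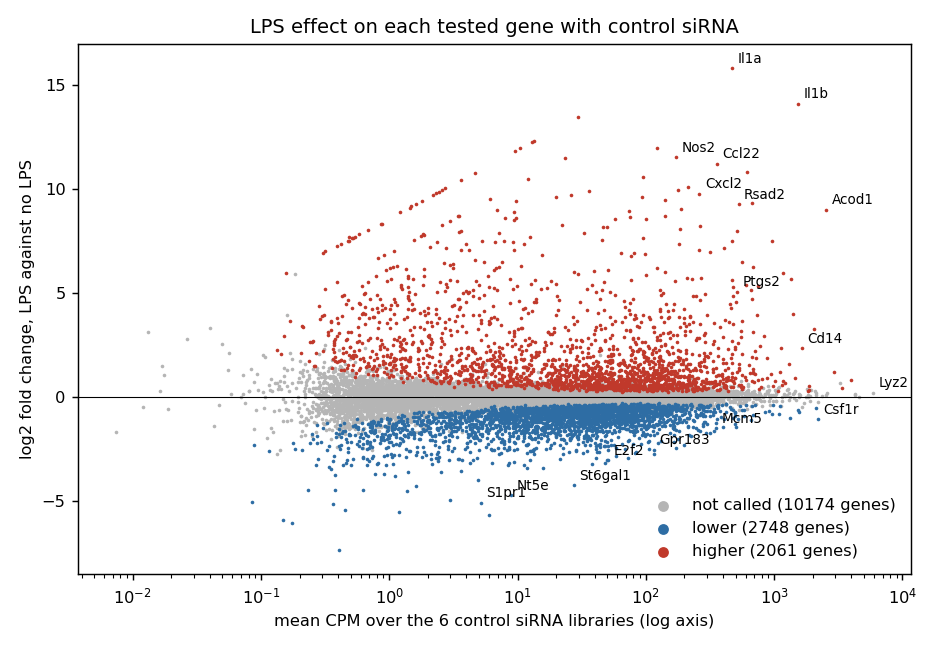
Each point is 1 of the 14983 tested genes, with its mean CPM over the 6 control siRNA libraries on the horizontal log axis and its log2 fold change (LPS against no LPS) on the vertical axis; red genes were called higher, blue genes lower and grey genes were not called. Points far above 0 reach much larger values than points below it, and the straight diagonal of red points at the upper left is made of genes with 0 counts without LPS, whose fitted values are no bounds.

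Seen as reads, the response replaced a large part of the mRNA pool. Genes called higher took 12.6, 13.04 and 12.6% of the reads on genes in the 3 libraries without LPS and 30.4, 29.4 and 30.5% with LPS. Genes called lower took 21.4, 20.5 and 20.5% without LPS and 9.88, 10.7 and 9.98% with LPS. The 296 genes that rose at least 16-fold went from 0.117 ± 0.0122% of reads to 5.59 ± 0.547%. Since these genes were called on the same reads, the shares describe the size of the change and are no further test of it. Acod1 alone, the enzyme that makes itaconate from a TCA cycle intermediate, went from 0.00105 ± 0.000462% of reads to 0.485 ± 0.0855% and became the gene with the third highest mean CPM. Lyz2 had the highest mean CPM in both groups. Csf1r, the receptor for the growth factor CSF1 and among the 5 most read genes without LPS, fell from 0.318 ± 0.0244% of reads to 0.136 ± 0.00933%. Osteopontin (Spp1) and the chemokine gene Ccl9 entered the 10 most read genes with LPS. These shares are per read and not per length of the gene.

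**Figure D2:**
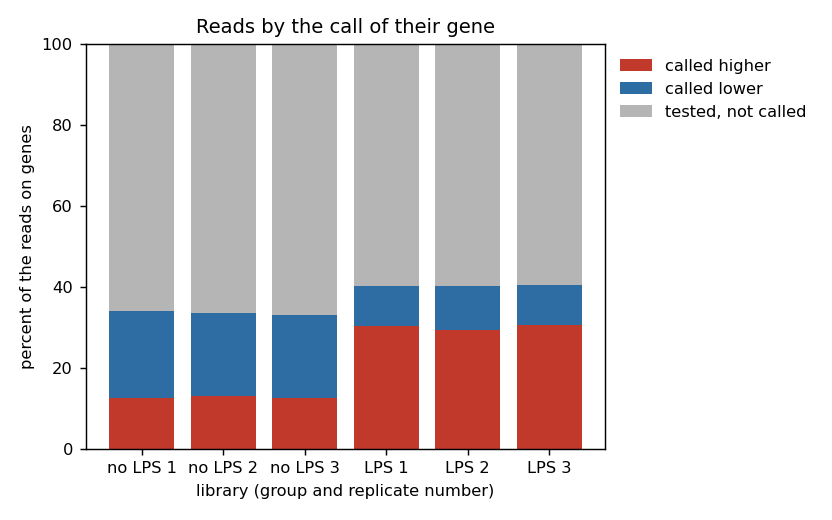
Stacked bars give, for each of the 6 control siRNA libraries, the percent of reads on genes that fell on genes called higher (red), called lower (blue) and tested but not called (grey). The red part is 12.6 to 13.04% in the libraries without LPS and 29.4 to 30.5% in those with LPS, and the blue part falls from 20.5 to 21.4% down to 9.88 to 10.7%.

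Among genes with at least 10 CPM on average, the 12 largest rises by fitted fold change included secreted signals, matrix enzymes and defence enzymes. They were Il1a, Il1b, Timp1, Lad1, Serpinb2, Il6, Csf3, Nos2, Mmp14, Ccl22, Ccl5 and Gbp2b. Nos2 (ENSMUSG00000020826, chr11:78920787-78960254 in mm10), the inducible nitric oxide synthase, was at 0.137, 0.0447 and 0.128 CPM without LPS and 333, 365 and 330.0 CPM with LPS (log2 fold change 11.53, standard error 0.37, edgeR adjusted p = 4.02e-09). Ccl22, a chemokine for T cells that carry CCR4, was at 0.367, 0.134 and 0.340 CPM without LPS and 564, 478 and 1113 CPM with LPS (log2 fold change 11.22, standard error 0.51, edgeR adjusted p = 1.75e-08). Csf3, which encodes the granulocyte growth factor G-CSF, was at 0.0458, 0.134 and 0 CPM without LPS and 447, 162 and 124 CPM with LPS (log2 fold change 11.96, standard error 0.92, edgeR adjusted p = 9.54e-07). In each of the 3 genes all libraries with LPS lay far above all libraries without it, although Csf3 varied between the LPS libraries. Mmp14, a membrane-bound collagenase, was at 0.0229, 0 and 0 CPM without LPS and 72.5, 33.9 and 33.2 CPM with LPS. Its only resting read was in replicate 1, so that its ratio of 4169-fold had an exact 95% Poisson interval of 748 to 164658 (counting error only), and without that library it was at least 712-fold higher. Timp1, Lad1, Serpinb2 and Il6 had 0 counts in all 3 libraries without LPS, so that their place among the 12 is not established and only a lower bound of their fold can be given, computed as if the 3 resting libraries together had held 3 counts. The bound for Serpinb2, an inhibitor of plasminogen activators, was at least 773-fold higher, from 66.0, 2.94 and 8.69 CPM with LPS, but at least 174-fold without LPS replicate 1. For Lad1, which encodes the filament protein ladinin, it was at least 797-fold higher, from 26.7, 14.1 and 39.4 CPM. In all, 36 tested genes had 0 counts without LPS and 32 of them were called higher, while 4 genes called lower had 0 counts with LPS. Leaving out 1 library gave a log2 fold of 11.18 for Csf3 without LPS replicate 1 and 12.78 without resting replicate 2.

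The 12 largest falls by the same rule came from a more mixed set. They were St6gal1, Neurl1b, Bmf, Cytip, Fam13c, C130050O18Rik, E2f2, Htr1b, Slc5a3, Amz1, Susd3 and Kifc3. Neurl1b, a ubiquitin ligase of the Notch pathway, was at 29.0, 17.7 and 18.2 CPM without LPS and 1.84, 2.22 and 2.07 CPM with LPS (log2 fold change -3.41, standard error 0.32, edgeR adjusted p = 5.85e-06). Fam13c was at 85.7, 53.2 and 67.4 CPM without LPS and 5.68, 7.86 and 8.80 CPM with LPS (log2 fold change -3.22, standard error 0.24, edgeR adjusted p = 9.10e-07). E2f2, a transcription factor of the cell cycle, was at 98.2, 94.3 and 81.0 CPM without LPS and 15.9, 8.98 and 8.35 CPM with LPS (log2 fold change -3.02, standard error 0.25, edgeR adjusted p = 1.76e-06). Each library with LPS was below each library without it in these genes. Slc5a3, the transporter of myo-inositol, was at 117, 66.6 and 83.3 CPM without LPS and 13.2, 11.1 and 8.86 CPM with LPS (log2 fold change -3.003, standard error 0.32, edgeR adjusted p = 1.85e-05), and Susd3 at 74.5, 68.2 and 74.0 CPM without LPS and 7.81, 10.9 and 10.4 CPM with LPS (log2 fold change -2.91, standard error 0.18, edgeR adjusted p = 1.73e-07). Kifc3, a kinesin motor, was at 166, 105 and 116 CPM without LPS and 22.04, 15.1 and 14.7 CPM with LPS (log2 fold change -2.89, standard error 0.21, edgeR adjusted p = 6.54e-07). The fall of Cytip, a regulator of integrin adhesion, was the least certain of the 12, at 29.5, 12.7 and 18.9 CPM without LPS and 4.05, 0 and 1.91 CPM with LPS (log2 fold change -3.24, standard error 1.01, edgeR adjusted p = 0.0311). With 1 library less, the log2 fold was -4.29 for Cytip without LPS replicate 1.

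**Figure D3:**
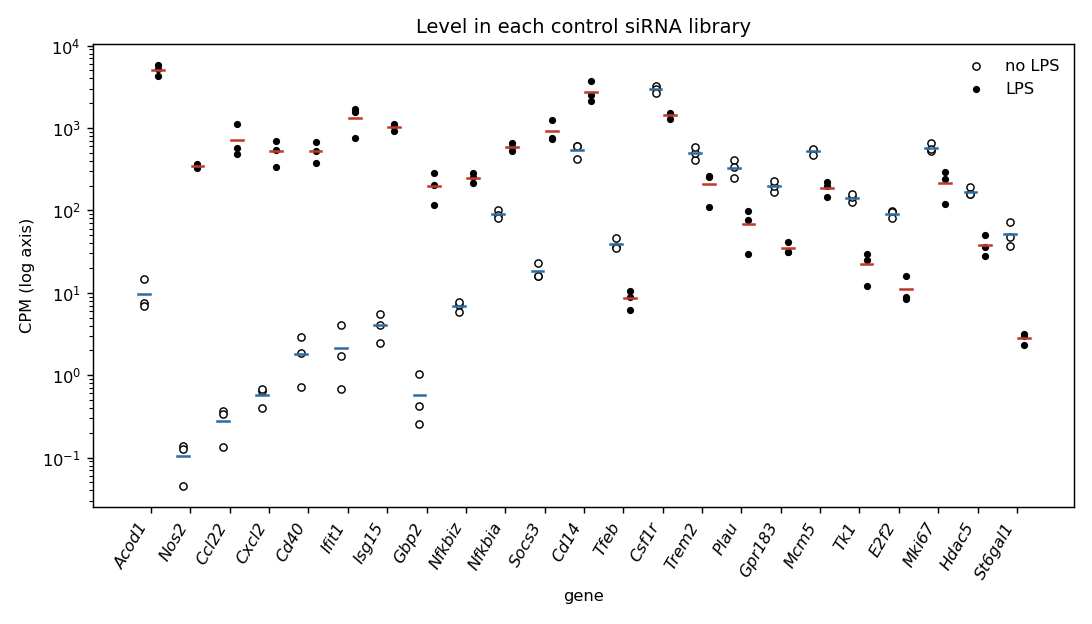
The level of 23 genes described in the text is shown in each control siRNA library as CPM on a log axis, with open circles for the 3 libraries without LPS, filled circles for the 3 with LPS and a short bar at each mean. From Acod1 to Cd14 every filled circle lies above every open circle, and from Tfeb to St6gal1 every filled circle lies below.

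Of 50 tested genes for chemokines, interleukins and other cytokines 43 were called higher and 0 lower, against 13.8% and 18.3% of all tested genes. Chemokines steer leukocytes along gradients and cytokines pass signals between cells. Of 16 CC and CX3C chemokine genes 13 were tested and 12 were higher with LPS, with a median log2 fold change of 6.48 over the tested genes (6.10 with genes of 0 resting counts held at their bound). Of 13 CXC chemokine genes 7 were tested and 5 were higher, and of 35 interleukin and other cytokine genes 30 were tested and 26 were higher (median 4.94, or 4.71 with such genes at their bound). Cxcl2, which attracts neutrophils, was at 0.642, 0.402 and 0.681 CPM without LPS and 334, 538 and 696 CPM with LPS (log2 fold change 9.79, standard error 0.78, edgeR adjusted p = 1.48e-06), and all 3 LPS libraries were far above the rest. Ccl7, a ligand for monocytes, reached only 0.137, 0.134 and 0 CPM without LPS and 23.04, 14.6 and 17.5 CPM with LPS. Summed over the class, the CC chemokines went from 450.3 ± 66.2 CPM without LPS to 9903 ± 2218 CPM with LPS, and Ccl9 and Ccl3 contributed most of the reads. The interleukin 1 receptor antagonist Il1rn, which blocks the receptor of the IL-1 cytokines, rose as well (48.7 ± 7.48 to 1303 ± 733 CPM, log2 fold change 4.74, standard error 0.41, edgeR adjusted p = 3.06e-06). Il10, the main anti-inflammatory cytokine, rose from 0.201 ± 0.130 to 7.79 ± 5.99 CPM (log2 fold change 5.13, standard error 0.83, edgeR adjusted p = 4.88e-04). Chemokines with close paralogs, such as Ccl3, Ccl4 and Ccl9, were counted from uniquely mapping reads, and their counts could miss shared sequence. Without 1 library the log2 fold change was 4.26 for Il10 without LPS replicate 1 and 5.88 without resting replicate 1.

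The receptors that read such signals were called in both directions, against 13.8% higher and 18.3% lower over all tested genes. Of 36 tested cytokine and growth factor receptor genes 14 were higher (38.9%) and 7 lower (median log2 fold change 0.51). That lower share, 19.4%, was near that of all tested genes. Of 18 tested chemokine and chemotactic receptor genes 11 were higher (61.1%) and 6 lower (33.3%), with a median of 1.58. Tnfrsf1b, the second receptor for TNF, was at 49.6, 22.1 and 34.2 CPM without LPS and 1886, 998 and 959 CPM with LPS (log2 fold change 5.18, standard error 0.35, edgeR adjusted p = 3.55e-07), and the death receptor gene Fas rose from 1.29 ± 0.730 to 161 ± 51.2 CPM (log2 fold change 6.92, standard error 0.45, edgeR adjusted p = 2.48e-07). Tgfbr1, a receptor subunit for TGF-β, fell 5.67-fold from 117 ± 31.0 to 20.7 ± 6.48 CPM (log2 fold change -2.50, standard error 0.38, edgeR adjusted p = 3.07e-04). Among chemotactic receptors, the atypical receptor gene Ccrl2 rose 292-fold (0.339 ± 0.0182 to 99.9 ± 35.7 CPM) and Ccr1 was at 0.962, 0.491 and 1.11 CPM without LPS and 76.3, 9.85 and 14.02 CPM with LPS (log2 fold change 5.28, standard error 0.86, edgeR adjusted p = 5.43e-04), where LPS replicate 1 set the mean. S1pr1, which lets cells follow sphingosine-1-phosphate, was at 10.5, 9.91 and 9.75 CPM without LPS and 0.421, 0.0794 and 0.280 CPM with LPS (log2 fold change -5.06, standard error 0.51, edgeR adjusted p = 1.05e-05). Gpr183, the receptor for an oxysterol gradient, was at 166, 197 and 227 CPM without LPS and 31.6, 31.2 and 40.9 CPM with LPS (log2 fold change -2.51, standard error 0.19, edgeR adjusted p = 8.09e-07). Both were below every resting library after LPS. Ifngr1, a subunit of the interferon γ receptor, was 1.94-fold lower (43.0 ± 3.70 to 22.2 ± 3.28 CPM). The IL-6 receptor gene Il6ra was at 130.1 ± 33.7 CPM without LPS and 97.7 ± 33.3 CPM with LPS and not called (log2 fold change -0.41, edgeR adjusted p = 0.461), but was called lower when the replicate number entered the model (edgeR adjusted p = 0.06) and when replicate 1 of all groups was left out (log2 fold change -0.49). Leaving out 1 library gave a log2 fold of 3.78 for Ccr1 without LPS replicate 1 and -5.66 for S1pr1 without LPS replicate 1.

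The listed genes induced by interferon moved the same way, but the lists were made with earlier results of these data known. All 54 antiviral interferon-stimulated genes on the list were tested and all 54 were higher, against 13.8% of all tested genes. Each rose by at least 2-fold, and their median log2 fold change was 4.32. Their products degrade or block viral RNA, tag proteins or trap virus particles. Rsad2, the viperin gene, was at 0.596, 3.48 and 1.28 CPM without LPS and 844, 1134 and 1186 CPM with LPS (log2 fold change 9.28, standard error 0.59, edgeR adjusted p = 2.03e-07), and Isg15, a ubiquitin-like modifier, at 2.47, 5.49 and 4.09 CPM without LPS and 1043, 909 and 1126 CPM with LPS (log2 fold change 8.02, standard error 0.30, edgeR adjusted p = 6.31e-09). Ifit1, which binds viral RNA that lacks the host's cap methylation, was at 0.687, 4.06 and 1.70 CPM without LPS and 752, 1549.8 and 1707 CPM with LPS (log2 fold change 9.34, standard error 0.75, edgeR adjusted p = 1.56e-06). The groups lay more than 100-fold apart in the mean of each of these genes. Oasl1, Usp18 and Rnf213 started from higher levels and rose less: Oasl1 went from 37.0 ± 8.72 to 2306 ± 207 CPM, Usp18, which removes ISG15, from 17.5 ± 10.7 to 1339.6 ± 217 CPM, and Rnf213 from 163 ± 8.77 to 2620.2 ± 146 CPM. Summed over the class, the level rose from 1960.3 ± 183 CPM without LPS to 30199 ± 847 CPM with LPS. All 13 tested guanylate-binding protein and immunity-related GTPase genes, whose products attack vacuoles that hold microbes, were higher too (median 6.32, or 6.22 with genes of 0 resting counts at their bound), among them Gbp2 at 0.252, 1.03 and 0.426 CPM without LPS and 202, 115 and 283 CPM with LPS (log2 fold change 8.57, standard error 0.53, edgeR adjusted p = 1.70e-07) and Irgm1 at 22.1, 38.1 and 34.9 CPM without LPS and 727, 923 and 1105 CPM with LPS (log2 fold change 4.86, standard error 0.23, edgeR adjusted p = 2.64e-08). Ifit3 and Ifit3b, and members of the Gbp family, are close copies of each other, so the split of reads within these families is uncertain. With 1 library less, the log2 fold was 10.21 for Rsad2 without resting replicate 2, 10.20 for Ifit1 without resting replicate 2 and 9.27 for Gbp2 without resting replicate 2.

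The promoter windows of these genes often held a sequence that the choice of genes did not use. RefSeq promoters (GRCm38.p6) were searched over the 250 bases before the annotated start for the letters of an interferon-stimulated response element (GAAA, any 2 bases, then GAAA) on both strands. Windows were at hand for 9214 of the tested genes. The element occurred in 2.98% of all 32851 windows and 2.89% of those of tested genes, in 2.08% of those of genes that were not called, in 2.22% of those of genes called lower and in 7.03% of those of genes called higher. Of 247 windows of genes with a fitted rise of at least 16-fold, 54 held it (21.9%), of 51 windows of the antiviral list 17 (33.3%), and of 9 windows of guanylate-binding protein and immunity-related GTPase genes 8 (88.9%). Of the windows of the genes with a fitted rise of at least 16-fold, 18.6% held a TATA box (TATAAA) and 16.6% an AP-1 element (TGANTCA), against 12.4% and 6.75% of all windows and 6.396% and 4.46% of those of tested genes. A match describes the letters and is no proof of a binding site. The following 3 stretches end at the base before the start, and capitals mark the element or its reverse complement, which overlaps itself in Isg15. They are Ifit1 (chr19:34640729-34640888, forward strand), Isg15 (chr4:156200819-156200978, reverse strand) and Gbp2 (chr3:142620503-142620662, forward strand).
Ifit1: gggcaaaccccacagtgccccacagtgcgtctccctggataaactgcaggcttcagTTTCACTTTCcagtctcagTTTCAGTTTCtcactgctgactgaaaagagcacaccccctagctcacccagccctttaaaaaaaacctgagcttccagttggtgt
Isg15: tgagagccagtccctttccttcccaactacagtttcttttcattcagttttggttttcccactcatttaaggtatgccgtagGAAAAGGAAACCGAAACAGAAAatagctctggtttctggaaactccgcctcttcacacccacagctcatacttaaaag
Gbp2: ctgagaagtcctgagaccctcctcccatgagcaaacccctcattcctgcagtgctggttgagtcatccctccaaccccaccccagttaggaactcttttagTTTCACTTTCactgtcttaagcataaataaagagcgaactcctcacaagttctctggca

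Most of the factors that carry the interferon and NF-κB signals rose as mRNAs themselves. Over all tested genes 13.8% were higher and 18.3% lower. Of 19 tested interferon regulatory and STAT factor genes 13 were higher and 0 lower (median 1.49), with Irf7 at 17.2, 36.9 and 29.4 CPM without LPS and 1742, 816 and 978 CPM with LPS (log2 fold change 5.41, standard error 0.50, edgeR adjusted p = 5.10e-06). Irf1 rose 10.5-fold (19.8 ± 5.71 to 208 ± 88.8 CPM), and Stat2, part of the complex that answers interferon, rose from 27.5 ± 2.41 to 411 ± 34.9 CPM. Of 18 tested genes for NF-κB subunits and their inhibitors 14 were higher (median 1.94). These included the subunit gene Nfkb1 (234 ± 20.3 to 1306 ± 87.8 CPM) and inhibitors of the pathway. Nfkbia, which encodes IκBα, was at 102, 89.0 and 81.4 CPM without LPS and 523, 589.9 and 655 CPM with LPS (log2 fold change 2.70, standard error 0.20, edgeR adjusted p = 6.63e-07), and Nfkbiz, a nuclear IκB protein that steers secondary genes, at 7.10, 7.64 and 5.83 CPM without LPS and 216, 280.3 and 251 CPM with LPS (log2 fold change 5.18, standard error 0.20, edgeR adjusted p = 7.04e-09). None of the 18 was called lower, against 1 with the replicate number in the model and 2 without LPS replicate 1. The letters of an NF-κB element (GGGA, any 2 bases, then TTCC) occurred on either strand in 1.21% of all windows and in 4.45% of those of genes with a fitted rise of at least 16-fold. Of the 5 CXC chemokine windows 3 held it. Capitals mark it in Cxcl2 (chr5:90903739-90903898, forward strand), where 2 matches on opposite strands overlap, and in Nfkbia (chr12:55492648-55492807, reverse strand).
Cxcl2: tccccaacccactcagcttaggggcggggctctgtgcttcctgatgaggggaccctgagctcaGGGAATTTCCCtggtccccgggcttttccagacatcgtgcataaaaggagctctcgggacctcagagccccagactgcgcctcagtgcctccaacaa
Nfkbia: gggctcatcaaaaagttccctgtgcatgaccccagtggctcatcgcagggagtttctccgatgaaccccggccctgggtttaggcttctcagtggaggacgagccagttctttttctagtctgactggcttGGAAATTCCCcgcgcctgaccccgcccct

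Upstream of these factors genes were called in both directions, but only the higher shares were above those of all tested genes (13.8% higher and 18.3% lower). Of 32 tested genes for Toll-like receptors, adaptors and proximal kinases 15 were higher (46.9%) and 5 lower (15.6%), with a median of 0.36. The count of lower genes was 9 with the replicate number in the model, which called 25.04% of all tested genes lower. It was 2 without LPS replicate 2 or resting replicate 1, and 3 without LPS replicate 3 or resting replicate 3. Cd14, the LPS co-receptor, was at 606, 603 and 419 CPM without LPS and 3675, 2489 and 2133 CPM with LPS (log2 fold change 2.35, standard error 0.25, edgeR adjusted p = 2.10e-05), and Tlr3, a sensor of double-stranded RNA, rose from 4.78 ± 1.14 to 45.0 ± 11.5 CPM. Tlr4 itself was at 58.0, 43.5 and 50.4 CPM without LPS and 44.4, 23.2 and 33.1 CPM with LPS and was not called (log2 fold change -0.59, edgeR adjusted p = 0.207). It was called lower with the replicate number in the model (edgeR adjusted p = 0.00688) and when LPS replicate 1 (log2 fold change -0.85), replicate 1 of all groups (-0.73) or the filter on low counts (-0.61) was left out. Tlr13, a sensor of bacterial ribosomal RNA, fell from 43.0 ± 3.46 to 20.3 ± 3.83 CPM (log2 fold change -1.08, standard error 0.25, edgeR adjusted p = 0.00548). Peli1, a ubiquitin ligase that acts with the IRAK kinases, rose from 20.6 ± 0.246 to 212 ± 87.8 CPM, and Irak2 from 43.5 ± 7.62 to 198 ± 15.96 CPM. Of 35 tested genes known for negative feedback 17 were higher (48.6%) and 4 lower (11.4%), with a median of 0.53. The lower count was 7 with the replicate number in the model. Socs3, which blocks cytokine receptors, was at 23.2, 15.8 and 15.9 CPM without LPS and 1259, 759 and 740.1 CPM with LPS (log2 fold change 5.65, standard error 0.27, edgeR adjusted p = 2.41e-08), and Tnfaip3, the ubiquitin editing enzyme A20, at 10.7, 7.10 and 8.85 CPM without LPS and 109, 136.6 and 179.6 CPM with LPS (log2 fold change 3.99, standard error 0.32, edgeR adjusted p = 1.54e-06). The lipid phosphatase gene Inpp5d (SHIP1) moved the other way, from 330.0 ± 13.4 to 171 ± 41.3 CPM (log2 fold change -0.95, standard error 0.21, edgeR adjusted p = 0.00453).

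Early response factors were among the risers. Of 30 tested AP-1, EGR and other immediate early factor genes 19 were higher and 2 lower (median 1.24, 1 without LPS replicate 3, resting replicate 2 or resting replicate 3). Myc rose from 11.4 ± 2.39 to 179.6 ± 45.5 CPM (log2 fold change 3.97, standard error 0.28, edgeR adjusted p = 5.88e-07), Junb from 181 ± 68.3 to 765 ± 98.1 CPM, Egr1 from 21.5 ± 9.35 to 88.4 ± 20.7 CPM and Ier3, which protects cells from TNF, from 26.5 ± 9.38 to 368 ± 122 CPM. Cebpd, a C/EBP factor that sustains inflammatory genes, rose from 15.1 ± 2.20 to 161 ± 3.39 CPM. Of 15 tested MAP kinase phosphatase genes 7 were higher and 3 lower (median 0.23), among them Dusp5 (6.17 ± 1.55 to 145 ± 55.0 CPM, log2 fold change 4.55, standard error 0.46, edgeR adjusted p = 1.09e-05) and Dusp2 (11.3 ± 0.618 to 152 ± 18.5 CPM), which switch off ERK, and Dusp1 (11.5 ± 3.05 to 59.2 ± 46.5 CPM). The lower count was 1 without LPS replicate 2, LPS replicate 3 or resting replicate 1. Of the MAP kinases and their activators, 4 of 36 tested genes were higher and 8 lower. In this main model the shares of 11.1% and 22.2% were near those of all tested genes (13.8% and 18.3%). With the replicate number in the model 6 were higher and 14 lower. The lower share was then above the 25.04% of all tested genes in that model. Without LPS replicate 3 the higher count was 2. The kinase genes Mapkapk2 (652 ± 68.5 to 1973 ± 161 CPM, log2 fold change 1.596, standard error 0.14, edgeR adjusted p = 3.56e-06) and Map2k1 (155 ± 4.39 to 432 ± 66.4 CPM) rose, and Map3k5 (ASK1) fell from 35.6 ± 4.46 to 16.7 ± 4.20 CPM. In the PI3K, AKT and mTOR list 2 of 27 were higher and 6 lower (22.2%, near the share of all tested genes), or 4 and 10 with the replicate number in the model, which called 18.8% and 25.04% of all genes. Its risers were the adaptor genes Pik3r5 (195 ± 29.6 to 607 ± 48.8 CPM) and Pik3ap1 (132 ± 27.5 to 439 ± 109.7 CPM). Genes whose products destroy cytokine mRNA also rose: Zfp36, the tristetraprolin gene, from 44.0 ± 18.9 to 399.6 ± 176 CPM (log2 fold change 3.18, standard error 0.51, edgeR adjusted p = 5.16e-04) and Zc3h12a, the RNase regnase-1, from 13.6 ± 3.61 to 171 ± 22.2 CPM (log2 fold change 3.65, standard error 0.21, edgeR adjusted p = 8.51e-08). In that list 7 of 22 tested genes were higher (31.8%) and 4 lower (18.2%), against 13.8% and 18.3% of all tested genes. The lower count was 2 without LPS replicate 2 or LPS replicate 3, and 1 without resting replicate 1 or resting replicate 2. Without 1 library the log2 fold change was 1.52 for Dusp1 without LPS replicate 1.

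Effector enzymes were called higher more often than all tested genes (13.8%), and lower about as often (18.3% of all tested genes). Of 43 tested genes for prostanoid, nitric oxide, redox and itaconate metabolism 22 were higher (51.2%) and 8 lower (18.6%), with a median of 0.59. Acod1 (ENSMUSG00000022126, chr14:103046977-103056573 in mm10) was at 14.8, 7.55 and 6.85 CPM without LPS and 4242, 5199 and 5797 CPM with LPS (log2 fold change 9.01, standard error 0.53, edgeR adjusted p = 1.14e-07). Ptgs2, the inducible cyclooxygenase COX-2, was at 26.9, 35.8 and 26.6 CPM without LPS and 1158, 907 and 945 CPM with LPS (log2 fold change 5.08, standard error 0.22, edgeR adjusted p = 1.12e-08), while its constitutive partner Ptgs1 was at 22.6, 9.78 and 15.1 CPM without LPS and 2.24, 3.18 and 3.03 CPM with LPS (log2 fold change -2.51, standard error 0.34, edgeR adjusted p = 1.24e-04). The libraries thus showed the COX genes moving in opposite directions without overlap. Hpgds, which makes prostaglandin D2, fell from 46.6 ± 7.33 to 13.8 ± 6.49 CPM (log2 fold change -1.77, standard error 0.42, edgeR adjusted p = 0.00749). The gene of the arginine transporter Slc7a2 rose from 0.0443 ± 0.00166 to 39.8 ± 11.6 CPM (log2 fold change 9.64, standard error 0.48, edgeR adjusted p = 2.82e-08). Among redox genes, Sod2, the mitochondrial superoxide dismutase, rose from 116 ± 17.3 to 467 ± 67.2 CPM, Cybb, the core of the phagocyte NADPH oxidase, from 379 ± 36.9 to 1391 ± 158 CPM, and the haem oxygenase gene Hmox1 from 122 ± 15.7 to 442 ± 289 CPM. Slc7a11, which imports cystine for glutathione, rose from 19.9 ± 2.17 to 277 ± 0.975 CPM (log2 fold change 3.80, standard error 0.18, edgeR adjusted p = 2.82e-08), but Gclc, the catalytic subunit of the first enzyme of glutathione synthesis, fell from 241 ± 7.43 to 86.2 ± 12.5 CPM (log2 fold change -1.48, standard error 0.18, edgeR adjusted p = 5.99e-05). Leaving out 1 library gave a log2 fold of 1.18 for Hmox1 without LPS replicate 1.

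Genes of antigen presentation on MHC class I rose, and those of class II mostly were not called. Over all tested genes 13.8% were higher and 18.3% lower. Of 22 tested class I and antigen processing genes 19 were higher (median log2 fold change 1.29). Tap1, a subunit of the peptide transporter, was at 30.7, 31.6 and 23.1 CPM without LPS and 444, 400.4 and 402 CPM with LPS (log2 fold change 3.87, standard error 0.19, edgeR adjusted p = 2.96e-08), and the immunoproteasome subunit genes Psmb8, Psmb9 and Psmb10 rose from 82.3 ± 14.1 to 281 ± 61.7 CPM, from 21.3 ± 2.50 to 85.5 ± 9.87 CPM and from 73.3 ± 0.945 to 284 ± 35.0 CPM. Of 13 class II genes 7 were tested and 1, Cd74, was called higher (14.3%, near the share of all tested genes). Cd74 had a log2 fold change of 0.58 and lost its call without LPS replicate 3, resting replicate 1 or resting replicate 2 (0.33, 0.49 and 0.53). Without LPS replicate 1, and with the replicate number in the model, 1 class II gene was called lower. Class I genes share long stretches of sequence, so the counts of single H2 genes are uncertain. Costimulatory and inhibitory surface proteins rose in 14 of 19 tested genes and fell in 2 (median 1.87, 1 without LPS replicate 2, resting replicate 2 or resting replicate 3). Cd40, through which T cells help macrophages, was at 0.710, 2.90 and 1.87 CPM without LPS and 374, 522 and 676 CPM with LPS (log2 fold change 8.23, standard error 0.49, edgeR adjusted p = 1.31e-07), Cd274, which encodes the inhibitory ligand PD-L1, rose from 1.75 ± 0.240 to 74.3 ± 7.49 CPM, and Cd80 rose from 1.43 ± 0.579 to 22.9 ± 3.90 CPM. Sirpa, the receptor of the "don't eat me" signal CD47, fell from 739.9 ± 261 to 275 ± 168 CPM (log2 fold change -1.43, standard error 0.41, edgeR adjusted p = 0.0216). With 1 library less, the log2 fold was -2.05 for Sirpa without LPS replicate 1.

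Adhesion, scavenger receptor, inflammasome, complement, matrix and purinergic lists were each called higher more often (41.7% to 66.7%) than all tested genes (13.8%). Their lower shares were mostly near the 18.3% of all tested genes. These were 20.8% for adhesion, 17.6% for scavenger and related receptors, 21.7% for inflammasome and 16.7% for complement genes. The matrix list had 8.33% and the purinergic list 30.8%. In the adhesion list 12 of 24 tested genes were higher and 5 lower (median 1.25, 3 without LPS replicate 1 or resting replicate 1). Itga5, the fibronectin receptor subunit, was at 321, 419.9 and 359.7 CPM without LPS and 1654, 2218 and 1802 CPM with LPS (log2 fold change 2.37, standard error 0.26, edgeR adjusted p = 2.16e-05), and Itgal and Icam1, a receptor and its ligand, rose from 28.5 ± 4.67 to 246 ± 87.6 CPM and from 119 ± 34.0 to 477 ± 123 CPM. Itgb5 and Itga6 fell from 188 ± 29.8 to 57.3 ± 16.6 CPM and from 14.4 ± 1.39 to 2.61 ± 0.219 CPM. In the list of scavenger, lectin, Fc and phagocytic receptors 17 of 34 tested genes were higher and 6 lower (median 0.85, 3 without LPS replicate 2, resting replicate 1 or resting replicate 3). The high-affinity IgG receptor gene Fcgr1 was at 51.2, 73.7 and 67.4 CPM without LPS and 564, 382 and 420.5 CPM with LPS (log2 fold change 2.83, standard error 0.23, edgeR adjusted p = 1.54e-06), and Siglec1 and Axl rose from 3.44 ± 1.62 to 197 ± 130.001 CPM and from 2.43 ± 1.59 to 79.3 ± 28.3 CPM. Trem2, a lipid sensor of tissue macrophages, fell from 496 ± 87.1 to 208 ± 85.5 CPM (log2 fold change -1.25, standard error 0.28, edgeR adjusted p = 0.00472). Inflammasome and pyroptosis genes were higher in 13 of 23 cases and lower in 5, led by Nod2 (2.47 ± 0.522 to 59.3 ± 3.70 CPM), Casp4 (3.63 ± 0.455 to 66.0 ± 17.6 CPM), the sensor of LPS in the cytosol, and Nlrp3 (63.9 ± 18.2 to 506 ± 81.1 CPM, log2 fold change 2.98, standard error 0.31, edgeR adjusted p = 1.45e-05). The lower count there was 3 without LPS replicate 2, resting replicate 1, resting replicate 2 or resting replicate 3. Complement genes were higher in 5 of 12 (3 without resting replicate 1) and lower in 2 (1 without LPS replicate 1, LPS replicate 2, LPS replicate 3, resting replicate 2 or resting replicate 3), with C3 rising from 2.38 ± 0.382 to 37.2 ± 12.8 CPM (log2 fold change 3.96, standard error 0.40, edgeR adjusted p = 1.06e-05). In the matrix list 16 of 24 were higher and 2 lower (median 1.75, 4 with the replicate number in the model, 4 without LPS replicate 1). Mmp9 was at 0.229, 0.313 and 0.298 CPM without LPS and 118, 45.1 and 35.5 CPM with LPS (log2 fold change 7.90, standard error 0.69, edgeR adjusted p = 3.32e-06). Plau, the urokinase gene, went the other way, at 245, 406 and 338 CPM without LPS and 29.5, 97.0 and 76.2 CPM with LPS (log2 fold change -2.29, standard error 0.35, edgeR adjusted p = 3.31e-04). In the purinergic list 7 of 13 were higher and 4 lower (median 0.95). Adora2b, a receptor for adenosine, rose from 9.66 ± 0.474 to 119.8 ± 30.7 CPM (log2 fold change 3.63, standard error 0.28, edgeR adjusted p = 1.16e-06), and P2rx7, the ATP-gated channel, fell from 52.2 ± 3.81 to 28.9 ± 4.24 CPM. Without 1 library the log2 fold change was 5.18 for Siglec1 without LPS replicate 1.

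**Figure D4:**
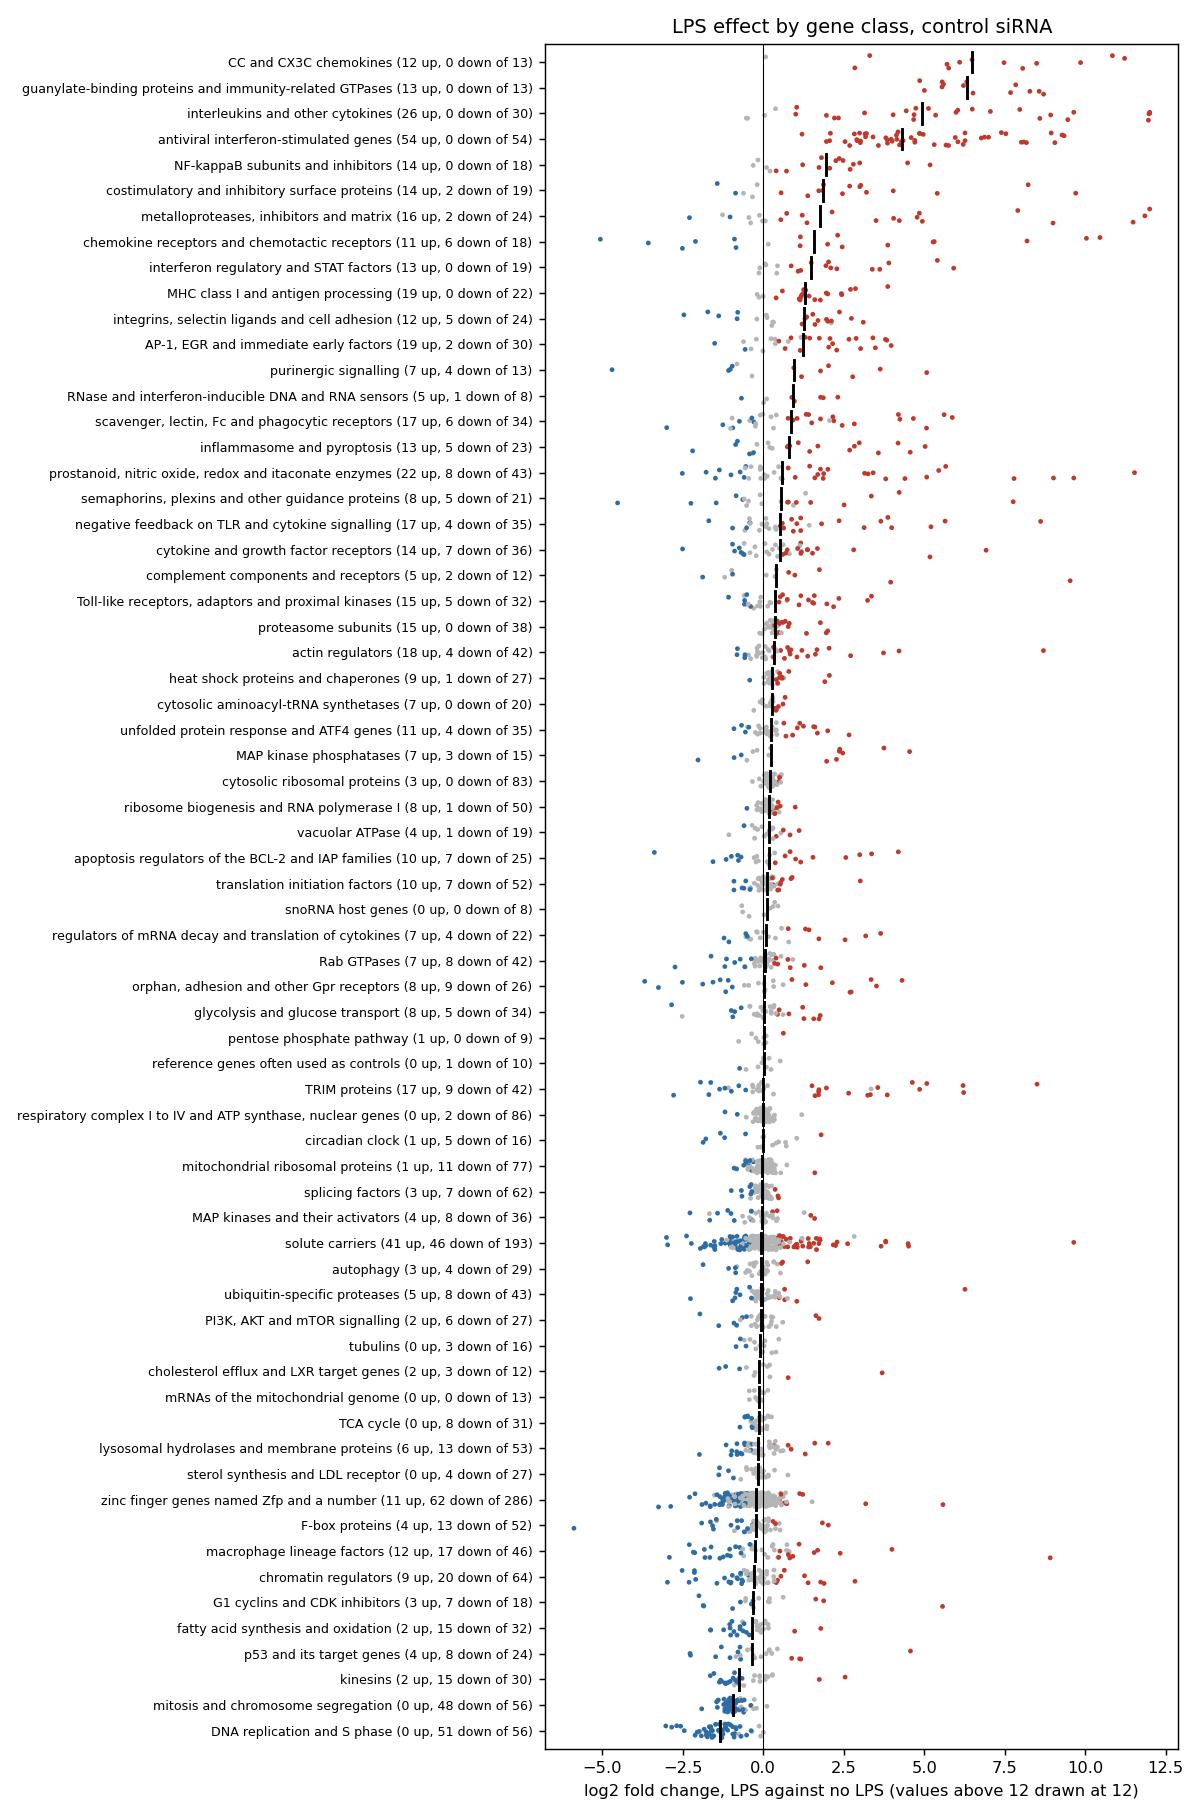
Each row is 1 gene class with at least 8 tested genes, each point 1 gene at its log2 fold change (LPS against no LPS, control siRNA), red if called higher, blue if called lower and grey if not called, and each black bar the class median; values above 12 are drawn at 12. Rows are ordered by median, from the CC and CX3C chemokines (6.48) at the top to DNA replication (-1.35) at the bottom.

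Genes of the macrophage lineage list were called in both directions. Of 46 tested 17 were lower (37.0%) and 12 higher (26.1%), with a median of -0.26, and both shares were above those of all tested genes (18.3% and 13.8%). Csf1r was at 3196, 2949 and 2656 CPM without LPS and 1523, 1459 and 1290.3 CPM with LPS (log2 fold change -1.04, standard error 0.14, edgeR adjusted p = 1.17e-04). The transcription factor gene Maf rose from 0.0374 ± 0.0464 to 18.7 ± 11.6 CPM, on 3 resting reads (ratio 559.7, exact 95% Poisson interval 192 to 2714). Mef2c fell from 113 ± 18.3 to 36.9 ± 17.4 CPM, Lyl1 from 60.3 ± 13.6 to 17.0 ± 11.1 CPM and Id2 from 55.4 ± 7.76 to 11.2 ± 3.89 CPM (log2 fold change -2.29, standard error 0.26, edgeR adjusted p = 2.86e-05). Tfeb, the master factor of lysosome genes, was at 46.0, 35.5 and 34.9 CPM without LPS and 10.5, 6.196 and 8.91 CPM with LPS (log2 fold change -2.17, standard error 0.21, edgeR adjusted p = 7.39e-06), and its relative Tfec rose from 3.40 ± 0.940 to 10.98 ± 3.81 CPM. Spi1, which encodes PU.1, rose from 494 ± 53.03 to 847 ± 57.3 CPM (log2 fold change 0.78, standard error 0.16, edgeR adjusted p = 0.00231). Klf2 and Bcl6 were not called (log2 fold changes 0.46 and 0.05). Leaving out 1 library gave a log2 fold of 8.28 for Maf without LPS replicate 1, 9.88 without resting replicate 2 and -2.51 for Lyl1 without LPS replicate 1.

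The gene classes with the lowest medians were those of the cell cycle. Of 56 DNA replication and S phase genes, all tested, 51 were lower and 0 higher, with a median log2 fold change of -1.35, and 41 had a fold change of at least 2-fold downward. The helicase gene Mcm5 (ENSMUSG00000005410, chr8:75109569-75128439 in mm10) was at 535, 555 and 476 CPM without LPS and 195, 223 and 143 CPM with LPS (log2 fold change -1.48, standard error 0.22, edgeR adjusted p = 2.58e-04) and Mcm2 at 398, 401 and 340.2 CPM without LPS and 161, 134 and 87.1 CPM with LPS (log2 fold change -1.57, standard error 0.25, edgeR adjusted p = 4.02e-04). Tk1, which salvages thymidine, was at 125, 146 and 156 CPM without LPS and 12.2, 29.4 and 25.3 CPM with LPS (log2 fold change -2.69, standard error 0.28, edgeR adjusted p = 1.38e-05). Every library with LPS was below every library without it in these genes. The summed level of the class fell from 7863 ± 264 CPM without LPS to 3030.0 ± 283 CPM with LPS. Of 56 mitosis and chromosome segregation genes 48 were lower and 0 higher (median -0.92), or 33 to 48 with any 1 library left out. Mki67, the Ki-67 proliferation marker, was at 525, 649 and 559 CPM without LPS and 120.0, 289 and 238 CPM with LPS (log2 fold change -1.42, standard error 0.35, edgeR adjusted p = 0.00866), Ccna2 fell from 311 ± 59.2 to 119 ± 51.8 CPM, and Foxm1, which drives mitotic genes, from 237 ± 23.7 to 89.1 ± 9.14 CPM. Of 30 tested kinesin genes 15 were lower and 2 higher (median -0.74, higher: 1 without LPS replicate 2, LPS replicate 3, resting replicate 1 or resting replicate 2). Of the genes upstream, 3 of 18 tested G1 cyclin and CDK inhibitor genes were higher (16.7%, near the 13.8% of all tested genes) and 7 lower (38.9%, against 18.3%). Cdkn1a, the inhibitor p21, was at 226, 247 and 209 CPM without LPS and 607, 784 and 722 CPM with LPS (log2 fold change 1.63, standard error 0.14, edgeR adjusted p = 2.53e-06), and the cyclin gene Ccnd1 at 579 ± 95.2 CPM without LPS and 470.0 ± 136 CPM with LPS was not called (edgeR adjusted p = 0.324). The genes of the retinoblastoma family, which restrain entry into S phase, were lower: Rb1 fell from 17.6 ± 1.204 to 4.93 ± 1.08 CPM, Rbl1 from 112 ± 4.23 to 58.2 ± 2.77 CPM and Rbl2 from 35.0 ± 3.49 to 8.83 ± 1.72 CPM.

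A CCAAT box (CCAAT, either strand) occurred in 33.8% of all promoter windows, in 56.7% of 60 windows of replication genes and in 74.0% of 50 windows of mitosis genes. The cell cycle homology region TTTGAA occurred in 38.0% of the mitosis windows, against 15.99% of all windows, 10.9% of those of tested genes and 17.4% of those of genes that rose at least 16-fold, but also in 33.3% of 9 windows of guanylate-binding proteins and 23.5% of 51 of antiviral genes. The E2F letters (TTT, any base, then GCGC) occurred in 11.7% of the replication windows, against 1.13% and 2.07%. The interferon element was in 5 and 4% of the replication and mitosis windows. Capitals mark overlapping E2F letters on both strands in Mcm5 (chr8:75109349-75109508, forward strand) and CCAAT boxes, read on the opposite strand, in the condensin gene Ncapd2 (chr6:125191587-125191746, reverse strand), which fell from 311 ± 15.4 to 114 ± 32.7 CPM.
Mcm5: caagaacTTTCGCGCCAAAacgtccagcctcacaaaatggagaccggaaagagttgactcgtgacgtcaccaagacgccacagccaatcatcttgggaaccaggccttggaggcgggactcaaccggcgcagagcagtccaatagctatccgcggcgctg
Ncapd2: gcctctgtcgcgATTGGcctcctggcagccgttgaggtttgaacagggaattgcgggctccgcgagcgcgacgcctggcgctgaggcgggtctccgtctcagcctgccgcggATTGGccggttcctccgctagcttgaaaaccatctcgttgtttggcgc

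Of 24 tested p53 pathway genes 4 were higher (16.7%, near the 13.8% of all tested genes) and 8 lower (33.3%, against 18.3%), with a median of -0.34. Mdm2, the ubiquitin ligase of p53, rose from 93.6 ± 13.98 to 210.1 ± 4.08 CPM (log2 fold change 1.17, standard error 0.17, edgeR adjusted p = 2.22e-04), while Sesn1 fell from 70.2 ± 17.1 to 14.4 ± 4.56 CPM (log2 fold change -2.27, standard error 0.27, edgeR adjusted p = 4.08e-05) and Bbc3 was not called (log2 fold change -0.07). Apoptosis regulators of the BCL-2 and IAP families, which include genes for and against survival, were higher in 10 of 25 cases and lower in 7 (4 without resting replicate 3). The risers included Bcl2l1 (36.1 ± 5.45 to 289 ± 30.6 CPM, log2 fold change 2.997, standard error 0.17, edgeR adjusted p = 7.99e-08), Mcl1 (435 ± 37.3 to 775 ± 123 CPM) and Cflar (40.5 ± 10.4 to 240.2 ± 7.08 CPM), which hold back apoptosis, and the stress gene Gadd45b (7.72 ± 1.21 to 141 ± 15.1 CPM). Bcl2a1b, also an inhibitor of apoptosis, rose from 7.23 ± 1.48 to 74.4 ± 34.2 CPM, but its near-identical copies make that count uncertain.

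Metabolic lists differed in their counts, against 13.8% higher and 18.3% lower over all tested genes. In the list of glycolysis and glucose transport 8 of 34 tested genes were higher (23.5%) and 5 lower (14.7%), with a median of 0.03. The lower count was 8 with the replicate number in the model. Slc2a1, the glucose transporter GLUT1, was at 140.2, 155 and 161 CPM without LPS and 609, 497 and 448 CPM with LPS (log2 fold change 1.77, standard error 0.15, edgeR adjusted p = 2.88e-06), Hk2, the hexokinase that traps glucose, rose from 99.2 ± 1.67 to 238 ± 37.9 CPM, and Pfkfb3, which makes the activator of phosphofructokinase, from 43.9 ± 5.57 to 130.2 ± 51.8 CPM (log2 fold change 1.57, standard error 0.26, edgeR adjusted p = 6.81e-04). The core enzyme genes Aldoa, Pkm and Ldha were not called (log2 fold changes 0.08, 0.01 and 0.21), nor was Hif1a (111 ± 22.4 CPM without LPS and 132 ± 29.0 CPM with LPS). Of 31 tested TCA cycle genes 0 were higher and 8 lower (25.8%), with a median of -0.14. The lower count was 4 without LPS replicate 1, 5 without resting replicate 1 or resting replicate 2, and 3 without resting replicate 3. Of 9 pentose phosphate genes 1 was called higher and 0 lower (lower: 2 without LPS replicate 2, and 2 with the replicate number in the model). Fatty acid synthesis and oxidation genes were lower in 15 of 32 cases (46.9%) and higher in 2 (6.25%), with a median of -0.33. Elovl6 and Elovl5, which lengthen fatty acids, fell from 47.4 ± 11.3 to 15.4 ± 2.58 CPM and from 75.7 ± 5.99 to 32.2 ± 9.13 CPM, and Fads1, a desaturase, from 478 ± 34.2 to 234 ± 35.2 CPM (log2 fold change -1.03, standard error 0.14, edgeR adjusted p = 1.79e-04). Of 27 tested sterol genes 0 were higher and 4 lower, but the lower count was 9 without LPS replicate 1, 2 without LPS replicate 2 or LPS replicate 3, 0 without resting replicate 1, and the replicate number in the model gave 2 higher and 7 lower. Sterol genes are thus not described further. The cholesterol exporter gene Abca1 rose from 4.23 ± 0.673 to 54.3 ± 32.7 CPM (log2 fold change 3.69, standard error 0.50, edgeR adjusted p = 1.38e-04), while Abcg1 at 67.2 ± 27.3 CPM without LPS and 55.0 ± 23.4 CPM with LPS was not called. In the LXR target list 2 of 12 were higher and 3 lower (1 without LPS replicate 2, LPS replicate 3 or resting replicate 2). Solute carriers as a family were higher in 41 of 193 tested genes (21.2%) and lower in 46 (23.8%), against 13.8% and 18.3% of all tested genes, with the peptide and histidine transporter gene Slc15a3 (14.1 ± 1.81 to 318 ± 166 CPM) rising and Slc16a12 (73.2 ± 16.4 to 13.995 ± 2.59 CPM) falling. With 1 library less, the log2 fold was 3.10 for Abca1 without LPS replicate 1.

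Lysosome genes were called in both directions, in the main model at shares near those of all tested genes. Of 53 genes for lysosomal hydrolases and membrane proteins, all tested, 13 were lower (24.5%) and 6 higher (11.3%), with a median of -0.15. Over all tested genes 18.3% were lower and 13.8% higher. With the replicate number in the model 21 were lower and 12 higher. Both shares were then above the 25.04% and 18.8% of all tested genes in that model. Sgsh, which degrades heparan sulphate, fell from 56.9 ± 8.38 to 14.5 ± 2.55 CPM (log2 fold change -1.98, standard error 0.22, edgeR adjusted p = 2.59e-05), and Lgmn, the asparaginyl protease legumain, from 637 ± 64.3 to 324 ± 23.8 CPM. Ctsc, a protease that activates other proteases, rose from 104 ± 11.4 to 419 ± 306 CPM (log2 fold change 2.02, standard error 0.40, edgeR adjusted p = 0.0021), and the sterol carrier gene Npc2 from 266 ± 41.3 to 806 ± 259 CPM (log2 fold change 1.601, standard error 0.24, edgeR adjusted p = 3.20e-04). Of 19 tested vacuolar ATPase genes 4 were higher and 1 lower (3 with the replicate number in the model, 2 without LPS replicate 1 or resting replicate 1). In the autophagy list 3 of 29 were higher and 4 lower (6 and 9 with that term, and lower 7 without LPS replicate 1), and the cargo receptor gene Sqstm1 rose from 379 ± 34.9 to 988 ± 384 CPM (log2 fold change 1.38, standard error 0.22, edgeR adjusted p = 4.65e-04). Without 1 library the log2 fold change was 1.23 for Ctsc without LPS replicate 1.

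Lists for making and folding protein differed from each other, against 13.8% higher and 18.3% lower over all tested genes. Cytosolic ribosomal protein genes were called higher in 3 of 83 cases (3.61%) and lower in 0. Of the 83, 80 had a TMM-scaled fold change above 1, with a median log2 of 0.21, while 89 such genes took 2.57 ± 0.324% of reads without LPS and 2.60 ± 0.365% with LPS. With the replicate number in the model 13 were called, and 0 without resting replicate 2, 1 without resting replicate 3. In the ribosome biogenesis list 8 of 50 were higher and 1 lower, 15 were higher with that term, and 2 without LPS replicate 2, 4 without LPS replicate 3 or resting replicate 1, 5 without resting replicate 3. Of 20 cytosolic tRNA synthetase genes 7 were higher and 0 lower (4 without resting replicate 3), none by 2-fold. Of 52 tested translation initiation factor genes 10 were higher and 7 lower (3 without resting replicate 1). Of 38 tested proteasome subunit genes 15 were higher and 0 lower (median 0.36, 29 with the replicate number in the model), and 36 had a fold change above 1. Outside the immunoproteasome, Psma6 rose most, from 188 ± 73.7 to 478 ± 157 CPM (log2 fold change 1.34, standard error 0.35, edgeR adjusted p = 0.0131). Heat shock and chaperone genes were higher in 9 of 27 cases and lower in 1 (median 0.28, 14 higher with the replicate number in the model, 5 without LPS replicate 1, and lower 0 without LPS replicate 2, resting replicate 1 or resting replicate 3). Of 35 tested genes of the unfolded protein response and ATF4, 11 were higher and 4 lower (median 0.25). Ppp1r15a (GADD34), which restarts translation after stress, rose from 15.4 ± 4.04 to 62.0 ± 5.57 CPM (log2 fold change 2.00, standard error 0.29, edgeR adjusted p = 2.58e-04), and the cystathionase gene Cth rose from 3.80 ± 1.80 to 23.8 ± 6.31 CPM. Hspa5, the chaperone BiP, was at 1538 ± 130.2 CPM without LPS and 2062 ± 715 CPM with LPS and not called (edgeR adjusted p = 0.157), but was called higher with the replicate number in the model (edgeR adjusted p = 0.0493) and when LPS replicate 2 or LPS replicate 3 was left out (log2 fold changes 0.56 and 0.56).

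Regulators of chromatin were more often lower than higher. Of 64 tested chromatin regulator genes 20 were lower (31.2%) and 9 higher (14.1%), with a median of -0.27, against 18.3% and 13.8% of all tested genes. Hdac5, a class IIa histone deacetylase, was at 192, 156 and 158 CPM without LPS and 50.3, 36.4 and 28.1 CPM with LPS (log2 fold change -2.14, standard error 0.20, edgeR adjusted p = 5.75e-06), its relative Hdac9 fell from 22.4 ± 3.71 to 4.00 ± 2.63 CPM, and the Polycomb genes Cbx2 and Cbx6 from 15.3 ± 2.36 to 3.37 ± 2.54 CPM and from 94.6 ± 17.5 to 19.2 ± 2.73 CPM. Kdm6b, which removes a repressive histone mark, rose from 21.1 ± 11.7 to 153 ± 32.8 CPM (log2 fold change 2.85, standard error 0.39, edgeR adjusted p = 1.50e-04) and Tet2, an oxidase of methylcytosine, from 23.4 ± 5.24 to 80.8 ± 7.87 CPM. Of 286 tested zinc finger genes named Zfp and a number, 62 (21.7%) were lower and 11 (3.85%, 7 without resting replicate 2) higher, against 18.3% and 13.8% of all tested genes. Their median log2 fold change was -0.22, and 91 were lower and 20 higher with the replicate number in the model. The rising exception with the highest level was Zfp36, which is named for a zinc finger but binds mRNA. F-box genes were lower in 13 of 52 cases and higher in 4 (2 without LPS replicate 1, LPS replicate 2, resting replicate 2 or resting replicate 3), and TRIM genes higher in 17 of 42 and lower in 9. Of 16 tested clock genes 1 was higher (2 with the replicate number in the model, 2 without LPS replicate 1 or resting replicate 3), the repressor gene Nr1d1 (10.6 ± 2.37 to 37.0 ± 17.0 CPM, log2 fold change 1.80, standard error 0.30, edgeR adjusted p = 6.36e-04), and 5 were lower, among them its relative Nr1d2 (18.4 ± 3.73 to 8.004 ± 1.45 CPM). Leaving out 1 library gave a log2 fold of -3.17 for Hdac9 without LPS replicate 3 and -2.99 for Cbx2 without LPS replicate 1.

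Several basic classes had few called genes, against 13.8% higher and 18.3% lower of all tested genes. Of 86 tested nuclear genes of the respiratory chain and ATP synthase 0 were called higher and 2 lower (1 without LPS replicate 1, resting replicate 2 or resting replicate 3), with a median log2 fold change of 0.00, and of 13 mRNAs of the mitochondrial genome 0 were called lower (1 without LPS replicate 1 or LPS replicate 3) and 0 higher. With the replicate number in the model 5 respiratory genes and 1 mitochondrial mRNA were called. Mitochondrial ribosomal protein genes were lower in 11 of 77 cases and higher in 1 (17 and 8 with that term, lower 7 without LPS replicate 1 or LPS replicate 2, 5 without resting replicate 2, 4 without resting replicate 3, and higher 5 without LPS replicate 1). Of 62 splicing factor genes 3 were higher (1 without LPS replicate 1, resting replicate 2 or resting replicate 3) and 7 lower (4 without LPS replicate 1 or resting replicate 2), none by 2-fold, and the median was -0.03. In a list of 10 genes often used as references 0 were called higher and 1 lower. The higher count was 2 with the replicate number in the model and 1 without resting replicate 1. Rplp0 (1219 ± 139 CPM without LPS and 1305 ± 169.6 CPM with LPS) and Rpl13a (627 ± 68.1 CPM without LPS and 711 ± 123 CPM with LPS) were not called. Actb, the β-actin gene and not among the 10, rose from 2894 ± 477 to 5090.2 ± 909.7 CPM (log2 fold change 0.81, standard error 0.17, edgeR adjusted p = 0.00291). In the list of actin regulators 18 of 42 were higher and 4 lower, led by Arhgef3 (4.85 ± 0.179 to 90.3 ± 48.2 CPM) and Marcksl1 (57.4 ± 9.29 to 765 ± 202 CPM, log2 fold change 3.74, standard error 0.30, edgeR adjusted p = 1.59e-06). Rab GTPases, at shares near those of all tested genes, were higher in 7 of 42 cases (16.7%, 4 without LPS replicate 1, LPS replicate 3, resting replicate 1 or resting replicate 2, 3 without resting replicate 3) and lower in 8 (19.05%), and ubiquitin-specific proteases in 5 (8 with the replicate number in the model, 3 without LPS replicate 3) and 8 of 43 (lower: 5 without resting replicate 3). Guidance proteins were higher in 8 of 21 cases and lower in 5 (3 without LPS replicate 2, resting replicate 1 or resting replicate 2, 2 without LPS replicate 3), orphan Gpr receptors in 8 and 9 of 26, and tubulins in 0 and 3 of 16 (lower: 1 without LPS replicate 3). Of 8 nucleic acid sensors 5 were higher and 1 lower. Of 1073 protocadherin and olfactory receptor genes 7 were tested, 3 of them called higher and 1 lower. That lower count was 0 without LPS replicate 2, LPS replicate 3 or resting replicate 1. It was 2 without resting replicate 2 and 2 with the replicate number in the model.

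Rising genes lay next to each other on the chromosomes in several places. When tested genes were put in order along each chromosome, 26 runs of at least 5 neighbours were all called higher (183 genes in all, the longest of 17), and 11 runs of at least 5 were all called lower (62 genes, the longest of 7). The longest run spanned chr1:85027954-85778643 in mm10, around Sp110, Sp140 and Sp100, interferon-inducible nuclear body genes, and its other 14 members carry provisional names. The next spanned chr1:173350879-174031810 and held 14 genes from Aim2, the sensor of cytosolic DNA, through the Ifi200 genes to Ifi205. A run of 8 on chr5:120730333-120907521 was made of Oas genes, a run of 9 on chr7:104244457-104507849 of Trim5, Trim12, Trim30 and Trim34 genes, and a run of 8 on chr11:82978390-83215154 mainly of Slfn genes. A run of 9 on chr19:10941481-11604849 held mainly Ms4a genes, surface proteins with 4 membrane spans, where Ms4a4c went from 0.0890 ± 0.0776 to 15.6 ± 1.77 CPM and Ms4a6b from 23.3 ± 5.25 to 99.8 ± 18.03 CPM. A run of 6 on chr17:35170991-35235792 held Tnf between Lta and Ltb. Most of these families arose by duplication, and reads that map to several copies were not counted, so the level of a single copy is uncertain. Since it is not known whether counting used strand, overlapping neighbours may also share reads. Genes of these runs outside the lists were named after their values were seen. With 1 library less, the log2 fold was 8.30 for Ms4a4c without resting replicate 2.

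The same LPS exposure in cells with SF3a1 siRNA used other libraries throughout and so could be set beside these results. It called 1598 genes (10.7% of those tested), or 1050 and 1058 without SF3a1 siRNA resting replicates 1 and 2. Of the 2061 genes called higher with control siRNA, 1900 had a fold change above 1 with SF3a1 siRNA and 885 were called higher there. Of the 2748 called lower, 2451 had a fold change below 1 and 544 were called lower. The median log2 fold change of the risers was 1.32 with control siRNA and 0.61 with SF3a1 siRNA, and that of the fallers was -0.93 and -0.38. The genes were chosen on the control siRNA libraries, a choice that favours larger values there. The test of the difference itself called 520 genes (3.47%), of which 288 were among the risers and 224 among the fallers. That number was 284 and 273 without SF3a1 siRNA resting replicates 2 and 3, 338 and 292 without control siRNA resting replicates 2 and 3, and 1756 with the replicate number in the model. Of the antiviral list 53 of 54 genes were called higher with SF3a1 siRNA too (median log2 fold change 2.99), and 22 of the 54 rose significantly less than with control siRNA. Of the replication genes 10 of 56 were called lower with SF3a1 siRNA (median -0.43), and the effect differed in 15, all toward a larger fall with control siRNA. Among mitosis genes 14 of 56 were called lower with SF3a1 siRNA (median -0.63) and the effect differed in 0. The smallest p-values of the difference belonged to Nfkbiz, Ptgs2, Tap1, Daxx, Kbtbd11, Fcgr1, Tnc and C3ar1. Nfkbiz had log2 fold changes of 5.18 with control siRNA and 1.89 with SF3a1 siRNA (edgeR adjusted p of the difference 1.27e-04). Fcgr1 had 2.83 and 0.00 (edgeR adjusted p of the difference 0.00149), and Kbtbd11, at 311, 243 and 316 CPM without LPS and 67.3, 45.3 and 50.8 CPM with LPS, had -2.41 and 0.48 (edgeR adjusted p of the difference 0.00149). Tnc, which encodes the matrix protein tenascin-C, was at 7.38, 5.22 and 3.74 CPM without LPS and 827, 930.4 and 657 CPM with LPS with control siRNA.

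**Figure D5:**
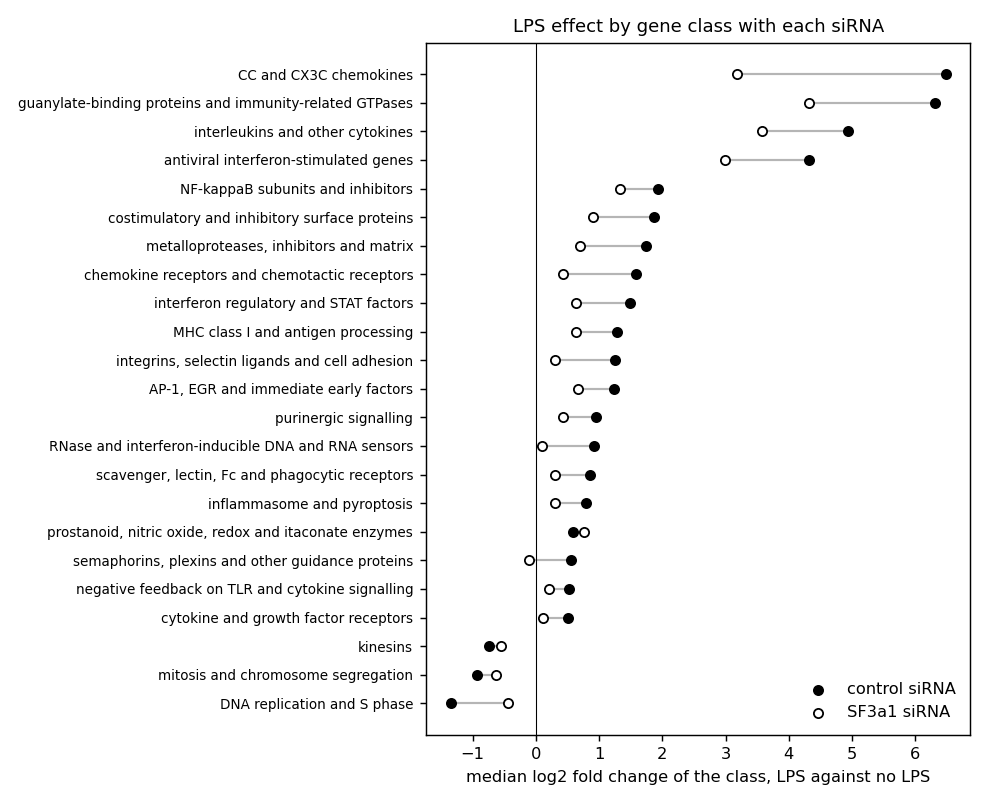
Median log2 fold change (LPS against no LPS) over the tested genes of each class whose median with control siRNA was at least 0.5 in size, with filled circles for control siRNA and open circles for SF3a1 siRNA. Open circles lie closer to 0 in all rows but that of the prostanoid, nitric oxide, redox and itaconate enzymes, and the antiviral class goes from 4.32 to 2.99.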

How the data were processed

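Poly-A RNA of RAW264.7 cells was sequenced on the Ion Proton platform. The submitters' processing notes name GSNAP (2013-11-27), HTSeq (0.5.4p) and mm10. The authors mapped the reads, left out very short ones and deposited raw counts of uniquely mapping reads for each Ensembl gene. Whether counting used strand is not given in the sources used here. Libraries held 12746019 to 41091887 reads on genes, and replicate 1 of each group was sequenced in more than 1 run. Deposited counts of exon parts were not used here.

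TMM-scaled counts of all 12 libraries were fitted with edgeR 4.0.16 (quasi-likelihood, filterByExpr, R 4.3.3) with a term per group, and p-values were adjusted by Benjamini-Hochberg over 14983 genes at 0.1. The test was checked on simulated data with 200 changed genes. CPM use TMM-scaled library sizes. DESeq2 1.42.0, limma-voom 3.58.1, other scalings and filters, a replicate block, a 1.5-fold threshold and leaving out libraries were the alternatives. Deviations from the group means of same-numbered libraries correlated at 0.576, 0.337 and 0.455, and different-numbered ones at -0.460 to 0.192. The labels do not say what a shared number marks, and these correlations within small groups are not independent. Pairing by number is thus possible but not established. The main test used no pairing, and the replicate block is the alternative that does.

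The comparison, its 69 gene lists and families (4155 members, 2546 tested) and the rule for named genes were chosen with earlier results of these data known. The rule took the 12 largest rises and falls at 10 CPM or more, up to 4 of each per list at 5 CPM or more, the 2 most abundant members of each list, the 10 most read genes per group, the 8 smallest p-values of the difference between siRNAs, genes with 0 resting counts and a fixed set. Lck, Spi1 and other cell type markers, and genes of chromosomal runs, were named outside it, and some genes that it takes are not reported here. A fold from 0 counts is a bound against 3 counts over the group. An exact permutation test of 3 against 3 libraries cannot go below p = 0.1. Promoter windows came from RefSeq (GRCm38.p6).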

Additional observations from a re-analysis of the deposited data

Results flagged for a closer look

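The effect of LPS was compared between the siRNAs by the test of the difference itself. Of 217 tested genes named in the text, 80 differed at a false discovery rate of 0.1 (edgeR), against 3.47% of all tested genes. Many genes were named for large LPS effects with control siRNA, and some for small p-values of this same test. That choice favours calls here. Leaving out a library moved the count over all tested genes from 520 to between 273 and 711. Whether each of the 80 keeps its call then is not reported here. Each value below is the log2 fold change with control siRNA minus that with SF3a1 siRNA, over 3 libraries a group. Where a gene rose, a positive value is a larger rise with control siRNA, and where it fell, a negative value is a larger fall.

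Among chemokine genes the difference was 2.63 for Ccl3, 3.30 for Ccl4, 3.51 for Ccl5, 4.12 for Ccl7, 3.07 for Ccl22 and 3.62 for Cxcl2. Among cytokine genes and receptors it was 3.31 for Il1b, 2.63 for Il1rn, 3.52 for Fas, 2.52 for Ccrl2, 2.40 for C3ar1, -1.51 for Gpr183 and -2.47 for S1pr1. For Timp1, with 0 counts without LPS, the fitted 7.24 is no bound.

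Among interferon and NF-κB genes the difference was 1.94 for Irf1, 2.30 for Irf7, 1.398 for Stat2, 2.86 for Ifit3b, 1.21 for Nfkbia, 3.29 for Nfkbiz and 1.82 for Daxx. The neighbours Sp100, Sp110 and Sp140 had 1.83, 1.26 and 1.92. In the signalling lists it was 2.79 for Tlr3, 0.85 for Irak2, 1.74 for Socs3, 1.31 for Zc3h12a, 1.64 for Dusp2, 1.45 for Pik3ap1, 1.65 for Lck, 2.30 for Myc, 2.47 for Egr1 and 1.87 for Cebpd.

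Among effector and surface genes the difference was 2.59 for Acod1, 2.90 for Ptgs2, 2.72 for Tap1, 1.35 for Psmb9, 1.17 for Psmb10, 1.80 for Cd274, 3.01 for Cd80, 2.83 for Fcgr1, 3.17 for Siglec1, 1.13 for Mpeg1, 1.91 for Itgal, -1.45 for Itga6 and 1.70 for Ms4a6b. It was 1.82 for Nod2, 1.83 for Casp4, 2.20 for C3, 3.48 for Mmp9, 4.34 for Tnc, 1.78 for Adora2b, 1.87 for Slc15a3 and 1.92 for Arhgef3.

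Among cell cycle, survival and chromatin genes the difference was 1.11 for Cdkn1a, 0.97 for Mdm2, 1.64 for Bcl2l1, 1.39 for Cflar, 1.46 for Tet2, -1.37 for Tk1, -1.79 for E2f2, -1.1997 for Rbl2, -2.14 for Sesn1, -2.22 for Bmf, -1.43 for Hdac5 and -1.48 for Cbx6. Among other genes that fell it was -1.95 for Tfeb, -2.03 for Id2, -1.14 for Elovl6, -2.33 for Slc5a3, -2.11 for St6gal1, -1.64 for Neurl1b, -1.69 for Amz1, -1.30 for Susd3, -1.81 for Plxnd1, -2.02 for Rab27a, -1.82 for Kifc3, -1.55 for C130050O18Rik and -2.90 for Kbtbd11. Groups of 3 libraries are too small to single out an outlying library.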

How the results depend on the processing

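The 6 control siRNA libraries held 13021502 to 41091887 reads on genes, and genes under the filter on low counts were not tested. Across the alternative fits for the LPS effect with control siRNA, 5 called genes named in the text lost their call in at least 1, and none changed direction. A test against a 1.5-fold change in place of any change called 1186 genes higher and 1115 lower, which follows from its stricter null. The other alternatives kept both counts within 1.5 times of 2061 and 2748, and with any 1 library left out 1758 to 1987 genes were higher and 2205 to 2711 lower. With the replicate number as a block no called gene named in the text lost its call, and 3 that were not called gained one, Tlr4, Il6ra and Hspa5. For the LPS effect with SF3a1 siRNA, the block called 3115 genes in place of 1598, and leaving out 1 library gave 1050 (SF3a1 siRNA, resting replicate 1) to 1509, with 1058 without resting replicate 2. The number of genes whose LPS effect differed between the siRNAs depended most on these choices. It was 520, but 966 with DESeq2, 930 with no filter on low counts, 1756 with the replicate block and 306 at a false discovery rate of 0.05. With 1 library left out it ran from 273 to 711, and was 284 and 273 without SF3a1 siRNA resting replicates 2 and 3 and 338 and 292 without control siRNA resting replicates 2 and 3. The cause of these shifts was not tested. RLE and upper quartile scaling moved the median log2 fold change of all tested genes from -0.02 to 0.02 and 0.00018, and the share of calls that were higher from 42.9% to 45.8% and 44.1%. Of 69 list medians, 53 moved by at least the spread between pairs in at least 1 alternative.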

Other observations

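Several genes not described above changed strongly. Gpr84, a receptor for medium-chain fatty acids, rose from 34.9 ± 11.8 to 399 ± 159.6 CPM (log2 fold change 3.52, standard error 0.45, edgeR adjusted p = 8.76e-05), and the adhesion receptor gene Adgre5 was lower, at 30.9, 5.13 and 9.70 CPM without LPS and 2.13, 1.51 and 1.07 CPM with LPS (log2 fold change -3.25, standard error 0.57, edgeR adjusted p = 9.83e-04). Has1, which makes hyaluronan, had 0 counts in every resting library and 21.8, 21.4 and 14.6 CPM with LPS, at least 575-fold higher. Among guidance genes Notch1 rose from 3.37 ± 2.97 to 35.4 ± 31.7 CPM (log2 fold change 3.36, standard error 0.68, edgeR adjusted p = 0.00247) and the semaphorin receptor gene Plxnd1 fell from 130.2 ± 25.6 to 27.6 ± 9.68 CPM (log2 fold change -2.24, standard error 0.30, edgeR adjusted p = 1.35e-04). Adar, which edits double-stranded RNA, rose from 147 ± 16.04 to 731 ± 67.3 CPM, and Samhd1, which depletes nucleotides, from 171 ± 29.5 to 625 ± 164 CPM. Rab27a, which docks secretory vesicles, fell from 12.5 ± 1.80 to 1.85 ± 0.237 CPM, and the deubiquitinase gene Usp2 from 49.0 ± 1.16 to 10.3 ± 2.34 CPM. In Adar, Samhd1, Gpr84 and Has1 every LPS library lay above every resting library. Without 1 library the log2 fold change was -2.19 for Adgre5 without resting replicate 1, 2.30 for Notch1 without LPS replicate 1 and 4.45 without resting replicate 1.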
